A study of Mus musculus with 24 samples.

Results

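Nuclear genes of the mitochondrial oxidative phosphorylation system were followed through chromatin accessibility in mouse bone marrow derived macrophages. They were chosen by symbol from the GENCODE annotation of mm10: every protein-coding gene starting with Nduf, Uqcr, Atp5 or Cox4 to Cox8, together with Sdha, Sdhb, Sdhc, Sdhd, Cyc1 and Cycs. The rule found 96 gene records of 21951 protein-coding genes, under 95 symbols, because Atp5o is annotated with 2 records. By symbol they comprised 38 complex I subunits, 8 complex I assembly factors, 4 subunits of complex II, 9 of complex III, 18 of complex IV, 18 of ATP synthase, and cytochrome c.

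Oxidative phosphorylation couples the oxidation of NADH and succinate to ATP synthesis. Complex I (NADH dehydrogenase) and complex II (succinate dehydrogenase) pass electrons through ubiquinone to complex III, from there through cytochrome c to complex IV, and the resulting proton gradient drives ATP synthase. Most of the subunits are encoded in the nucleus, and a few in mitochondrial DNA, which the rule does not cover. Macrophages stimulated with lipopolysaccharide (LPS), a bacterial cell wall component sensed by Toll-like receptor 4, are known for a shift of energy metabolism from respiration towards glycolysis.

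The study profiled macrophages from 8 male mice at postnatal day 28 by ATAC-seq, in which the transposase Tn5 cuts accessible DNA. Of the mice, 4 were of strain C57BL6/J (animals 1, 4, 6 and 7) and 4 of strain BTBR (BTBR T+ Itpr3tf/J; animals 2, 3, 5 and 8), an inbred strain used as a model of autism-like behaviour. Marrow of both strains was cultured for 7 days, and the cells of each animal were divided among 3 treatments: medium alone ("media"), a 24 hour exposure to LPS at 100 ng/ml ("LPSx1"), or the same 24 hour exposure after an earlier 4 hour dose that was washed out and followed by 20 hours in base medium ("LPSx2"). The labels name no engineered allele in any group. The comparisons ask how a first or repeated dose of LPS and the strain of the animal goes with accessibility, and whether the strains respond alike. The labels give each biological replicate number to all 3 treatments, and it was taken as the animal.

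Before the values, the promoters of the members the results turn on are shown: for each complex the member with the highest mean promoter rank (defined below) among those with a window in the RefSeq table that were detected in every library or called different, and Ndufa4, chosen after its values were seen. In complex III, Uqcrc2 and Uqcrq had higher mean ranks than Uqcrh (47.0 and 41.3 against 38.1). Each line is the 250 bases upstream of the start site in RefSeq (GRCm38.p6), 5′ to 3′ along the gene. Capitals mark matches, on either strand, to any of 8 short motifs: the NRF1 motif, the TATA box (TATAAA), ETS (CCGGAAGT), YY1 (AAGATGGCG), SP/KLF (GGGCGG), CRE (TGACGTCA), the CCAAT box and AP-1 (TGACTCA).
Ndufa5, chr6:24527527-24527776, minus strand: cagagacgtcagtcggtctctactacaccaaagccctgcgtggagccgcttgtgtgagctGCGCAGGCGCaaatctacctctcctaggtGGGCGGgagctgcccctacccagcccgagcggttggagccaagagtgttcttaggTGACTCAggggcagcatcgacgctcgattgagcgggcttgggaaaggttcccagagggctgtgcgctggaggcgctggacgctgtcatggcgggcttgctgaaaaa
Sdhd, chr9:50603850-50604099, minus strand: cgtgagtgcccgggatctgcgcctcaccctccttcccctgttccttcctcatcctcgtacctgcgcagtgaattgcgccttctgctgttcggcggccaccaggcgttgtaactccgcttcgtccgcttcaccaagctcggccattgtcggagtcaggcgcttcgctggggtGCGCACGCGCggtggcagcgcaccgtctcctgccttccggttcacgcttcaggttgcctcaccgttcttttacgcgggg
Uqcrh, chr4:116075071-116075320, minus strand: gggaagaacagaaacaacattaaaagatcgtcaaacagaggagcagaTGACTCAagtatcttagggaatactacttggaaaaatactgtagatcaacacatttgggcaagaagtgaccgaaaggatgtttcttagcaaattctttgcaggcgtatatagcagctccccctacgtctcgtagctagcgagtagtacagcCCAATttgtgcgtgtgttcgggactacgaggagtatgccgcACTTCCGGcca
Cycs, chr6:50566570-50566819, minus strand: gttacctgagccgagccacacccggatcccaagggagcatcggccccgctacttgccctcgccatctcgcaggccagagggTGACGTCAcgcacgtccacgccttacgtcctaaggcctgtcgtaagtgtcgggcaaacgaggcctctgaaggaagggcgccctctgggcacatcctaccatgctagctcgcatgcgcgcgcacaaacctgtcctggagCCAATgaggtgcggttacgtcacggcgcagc
Cox7c, chr13:86046796-86047045, minus strand: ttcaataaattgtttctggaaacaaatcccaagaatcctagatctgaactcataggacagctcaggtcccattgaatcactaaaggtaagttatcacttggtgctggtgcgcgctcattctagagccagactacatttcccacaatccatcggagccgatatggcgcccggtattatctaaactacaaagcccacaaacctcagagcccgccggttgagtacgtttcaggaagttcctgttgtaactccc
Atp5j, chr16:84834977-84835226, minus strand: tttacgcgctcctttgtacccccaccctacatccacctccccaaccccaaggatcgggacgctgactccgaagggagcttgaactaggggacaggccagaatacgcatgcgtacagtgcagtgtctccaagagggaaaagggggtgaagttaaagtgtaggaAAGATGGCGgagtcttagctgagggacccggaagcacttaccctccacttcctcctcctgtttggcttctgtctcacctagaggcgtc
Ndufa4, chr6:11907451-11907700, minus strand: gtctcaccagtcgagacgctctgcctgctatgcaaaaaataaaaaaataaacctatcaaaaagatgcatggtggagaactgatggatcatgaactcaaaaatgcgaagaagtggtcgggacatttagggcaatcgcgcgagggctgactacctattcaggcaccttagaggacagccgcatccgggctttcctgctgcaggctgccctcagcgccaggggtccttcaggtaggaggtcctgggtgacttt

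Of these windows, that of Ndufa5 (complex I) held an NRF1, an SP/KLF and an AP-1 match, and that of Sdhd (complex II) an NRF1 match. The Cycs window (cytochrome c) held a CRE and a CCAAT box, the Atp5j window (ATP synthase) a YY1 match, and the Uqcrh window (complex III) ETS, CCAAT and AP-1 matches. The windows of Cox7c (complex IV) and Ndufa4 held none of these letters. Over windows of 300 bases (250 upstream and 50 downstream), available for 75 of the 96 members, the NRF1 motif was found in 25.3% of members (19 genes) against 7.44% of all 16515 protein-coding promoters in the table. The YY1 motif was found in 10.7% against 2.25%, and the CRE in 6.67% against 2.64%. The ETS motif was held by 6.67% against 5.94%, SP/KLF by 45.3% against 51.0%, the CCAAT box by 45.3% against 42.1%, AP-1 by 8.0% against 5.41% and TATA by 9.33% against 14.3%. Short motifs such as CCAAT occur often by composition, and no motifs overlapped in the printed lines. Members also had more CpG dinucleotides per window (median 19 against 14), at a median GC content of 58.3% against 57%. Promoters tested below were rich in CpG in general: there the median was 21 CpG in members and 22 in all. Among the tested promoters NRF1 was found in 31.9% of 47 members and 13.8% of 5760 genes, YY1 in 8.51% and 3.94%, CRE in 8.51% and 3.80%, and AP-1 in 10.6% and 4.10%. SP/KLF went the other way, with 48.9% of these members and 74.6% of the genes, as did ETS with 6.38% and 10.7% and TATA with 4.26% and 7.57%. The CCAAT box was held by 48.9% and 49.7%. These are matches of letters and carry no test.

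The deposited data were 1 list of accessible regions (peaks) per library, each 201 bp wide and with a score. List length ran from 299 to 127291 peaks, and the number of reads behind a peak is unknown. Macrophage marker genes had a promoter peak in some library for 9 of 9 genes and in at least 50% of libraries for 8, whereas 0 of 6 B cell, 0 of 7 stromal and 0 of 6 erythroid markers had one, with 2 of 8 neutrophil, 2 of 8 T and NK cell and 1 of 7 dendritic cell markers. Of 8 macrophage markers tested for promoter rank (defined below), Cd68 fell under both LPS schedules, by 28.6 and 28.8 points in limma (adjusted p = 0.0431 and 0.0361). Of 2 neutrophil markers tested, Camp rose, by 66.5 and 60.1 points (adjusted p = 9.29e-06 and 7.58e-05). Summed over the macrophage list, media libraries had between 9 and 37 peaks, LPSx1 libraries between 8 and 43 and LPSx2 libraries between 7 and 49. For the neutrophil list the ranges were 1 to 3, 1 to 4 and 1 to 5, with Elane, Ly6g and Retnlg at 0. The part of these markers in the results below was not tested. Medium and LPSx2 libraries of C57BL6/J animal 6 held 299 and 1879 peaks and were left out, so that 22 libraries remained: 7 media, 8 LPSx1 and 7 LPSx2, from 10 C57BL6/J and 12 BTBR cultures. In 7 lists 66.7 to 87.4% of peaks overlapped another peak of the same list, and of such peaks only the higher-scoring was kept. They were the 3 lists of animal 1 and, for animals 3 and 4, those of media and LPSx2. Lists were then limited, within each of the 4 sequencing lanes, to the length of the shortest. Lane and animal go together, since each lane carried 1 animal of each strain.

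Accessibility at a gene was read in 2 ways. The promoter rank is the percentile, from 0 to 100, of the best-scoring peak within 1 kb of a start site of the gene among all peaks of its list, and 0 where the list had no such peak. It is a place in a list of fixed length, not an amount of accessibility: a promoter falls in rank when other sites rise. The peak number counts the peaks for which the gene is the nearest protein-coding start site within 100 kb. In bulk cultures a site open in fewer cells and a site less open in each cell cannot be told apart.

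In the length-limited lists a promoter peak was found on average for most members in media, and for fewer under LPS. A promoter peak was found for 62 of 96 members on average in media (64.6% ± 13.7, SD, n = 7), 49.5 in LPSx1 (51.6% ± 11, n = 8) and 43.3 in LPSx2 (45.1% ± 11.7, n = 7). Over all protein-coding genes the shares were 35.8%, 30.3% and 28.6%. Within animals the number differed from media by -12.9 members with LPSx1 and by -18.7 with LPSx2, lower in 7 of 7 animals each time. These counts depend on the limit set on list length. At full length, where lists differ in length, peaks assigned to members were more numerous with LPSx1 than media in animals 1, 2, 3, 4 and 7. In animals 5 and 8 they were fewer. In media, LPSx1 and LPSx2 they numbered 49, 92 and 99 in animal 1, and 98, 57 and 45 in animal 8.

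Promoters of 11 members were detected in every library. Of these, 4 encode parts of ATP synthase beside Atp5s, namely Atp5g1 (c-ring), Atp5c1 (γ subunit), Atp5e (ε subunit) and Atp5j (peripheral stalk). The others were the complex I genes Ndufa5, Ndufa6, Ndufb4 and Ndufaf4 and the complex IV genes Cox5b and Cox7c. Cox7c had the highest mean promoter rank, 95.0, followed by Atp5j at 93.2, Atp5g1 at 89.4, Ndufa5 at 89.1, Ndufa6 at 87.2 and Atp5e at 86.1. The Atp5j peak lay nearest to its own start in 4 of 22 libraries; the neighbouring start, 379 bp away, is that of Gabpa. Gabpa encodes the DNA-binding part of an ETS-family factor known as a regulator of these genes.

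Promoters of 14 members had no peak in any of the length-limited lists. Of them, 7 belong to complex IV: Cox4i2, Cox6a2, Cox6b2, Cox7b, Cox7b2, Cox8b and Cox8c. Cox6a2 and Cox8b are known as the heart and muscle forms of their subunits, and Cox6b2, Cox7b2 and Cox8c as testis forms. Cox7a1, another muscle form, had a promoter peak in 12 libraries. The other 7 were Ndufa1, Ndufa4l2, Ndufaf1, Ndufc2, Ndufs4, Atp5l and the other record of Atp5o. Subunits that every respiring cell uses were detected unevenly, and the lack of a peak in these short lists does not show a closed promoter. Cyc1 (cytochrome c1) had a promoter peak in 3 libraries, Uqcrc1 in 5, Sdhc in 5, Cox6c in 1 and Atp5a1 in 2, whereas Atp5b was detected in 21, Sdhb in 21 and Ndufv1 in 19.

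**Figure D1:**
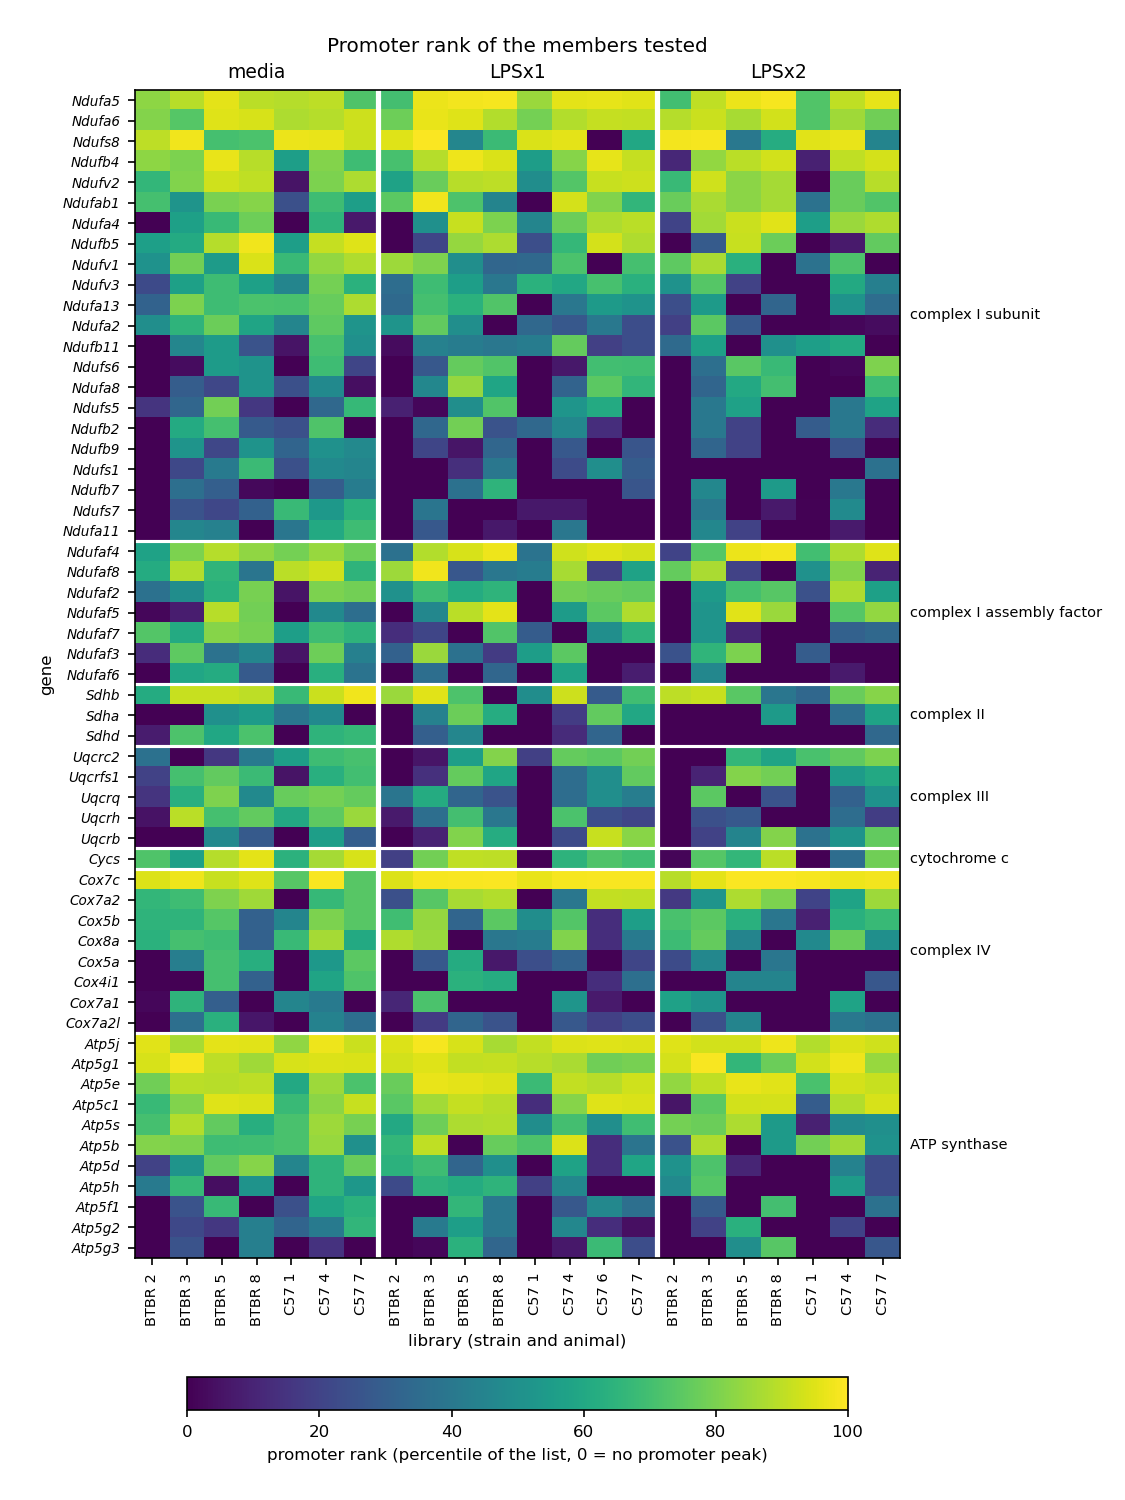
Promoter rank (colour, percentile of the list, with 0 for no promoter peak) of the members detected in at least 50% of libraries (rows) in each of the 22 libraries (columns, ordered by treatment and then strain). Cox7c, Atp5j and Atp5g1 are high in all columns, while Sdhd, Ndufs1 and Ndufaf6 are mostly at 0 under LPSx2.

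The tests of promoter rank covered the 7152 genes with a promoter peak in at least 50% of libraries, among them 58 members. The filter counted libraries of all treatments together. Sdhd, Ndufaf6 and Ndufa11 passed at exactly 50%, with a peak in more media libraries than libraries of either LPS schedule. The part of this in their falls, given below, was not tested. Ranked among all peaks and over all lanes, more members fell than rose under both schedules. For neither did this hold without a term for the lane, or on the mere presence of a promoter peak, where no member was called (shares below). For LPSx2 it also did not hold in lanes 3 and 4 alone. For LPSx1 it did not hold there, among promoter peaks alone or without the lists full of overlapping peaks (all given below), nor with peaks not merged or the stronger 50% of each list, where 1 rose and 1 fell. With LPSx2, 2 members rose and 16 fell at an adjusted p under 0.05, beside 20.8% of all genes tested (2.84% higher, 18% lower). Over all 58 members, 13 differences were above 0 and 45 below, with a median of -12.2 points, against -8.52 points over all genes tested. With LPSx1, 1 member rose and 6 fell, beside 13.5% of all genes (2.5% higher, 10.9% lower). Here 17 differences were above 0 and 41 below, with a median of -8.53 against -6.35 points. The 7 members called with LPSx1 were all among the 18 called with LPSx2, and the comparisons share the media libraries.

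Complex I subunits made up the largest group, and of 23 tested, 8 fell and 1 rose with LPSx2. Ndufa2, an accessory subunit on chromosome 18, ranked between 45.5 and 77.4 in media (median 58.5), 0 and 76.1 in LPSx1 (median 36.9) and 0 and 75 in LPSx2 (median 3.49). Apart from 1 LPSx2 library at 75, its values under LPSx2 lay low in the list. The difference from media was -44.0 ± 10.1 points (SE, adjusted p = 0.00402) and 6 of 7 animals were lower. Ndufa13, which encodes an accessory subunit also known as GRIM-19, ranked between 31.5 and 87.8 in media (median 71.8), 0 and 72.9 in LPSx1 (median 53.1) and 0 and 54.4 in LPSx2 (median 32.8). It fell by 42.4 ± 9.3 points with LPSx2 (adjusted p = 0.00303), lower in 7 of 7 animals although the groups overlapped. Ndufb5, an accessory subunit of the membrane arm, ranked between 56 and 97.8 in media (median 88.8) and between 0 and 91.5 in LPSx2 (median 28.6), and fell by 39.8 ± 9.0 points (adjusted p = 0.00364).

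Core catalytic subunits were among those that fell. Ndufs7, an iron-sulfur subunit near the ubiquinone-binding site, was detected in 6 of 7 media, 3 of 8 LPSx1 and 4 of 7 LPSx2 libraries and fell by 33.1 points with LPSx1 (adjusted p = 0.0104) and 26.6 with LPSx2 (adjusted p = 0.0276). Ndufs1, the large iron-sulfur subunit, was detected in 6 of 7 media and 1 of 7 LPSx2 libraries (adjusted p = 0.0164). The accessory subunits Ndufa11 and Ndufb9 also fell with LPSx2, with adjusted p of 0.014 and 0.0241.

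Ndufa4 went the other way. Its protein is now assigned to complex IV, although its symbol places it with complex I. In media it ranked 0, 65.2 and 6.97 in C57BL6/J animals 1, 4 and 7 and 0, 56.8, 67.3 and 78.0 in BTBR animals 2, 3, 5 and 8. With LPSx2 the same animals gave 55.9, 84.8 and 88.2 and then 20.3, 86.1, 91.9 and 95.6. Every animal was higher with LPSx2 than without, while the ranges overlapped because of animals 1 and 2. The rise was 37.6 ± 9.6 points (adjusted p = 0.00785), and the rise with LPSx1 was 24.5 points with an adjusted p of 0.073. The Ndufa4 peak was nearest to its own start in 10 of 19 libraries, and otherwise to that of Phf14, 312 bp away.

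Among complex I assembly factors, 3 of 7 fell with LPSx2. Ndufaf7, a methyltransferase needed for assembly of complex I, ranked between 56 and 81.9 in media (median 69), 0 and 72.9 in LPSx1 (median 25) and 0 and 51.8 in LPSx2 (median 10.5). It was the only one of the 18 called members whose media and LPSx2 values did not overlap, beside 3.23% of the 1487 genes called and 0.699% of all genes tested. In media of animal 7 (65.0) and LPSx2 of animals 3 and 5 (51.8 and 10.5), the peak was nearest to another gene's start. With own-start peaks alone that media library had 0, so the groups overlapped. The fall was 50.1 points (SE 11.2, adjusted p = 0.00353) with LPSx2 and 37.0 points (SE 10.9, adjusted p = 0.0251) with LPSx1, lower in 7 of 7 animals in both. Ndufaf6 and Ndufaf8 fell by 28.5 and 26.5 points with LPSx2, with adjusted p of 0.0271 and 0.0499.

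In complex II, Sdhd fell and the catalytic subunits did not pass the test. Sdhd, a membrane anchor of succinate dehydrogenase, ranked between 0 and 72.1 in media (median 65.2), 0 and 46 in LPSx1 (median 6.15) and 0 and 33.8 in LPSx2 (median 0). Its promoter peak was present in 6 of 7 media, 4 of 8 LPSx1 and 1 of 7 LPSx2 libraries. The differences were -35.5 ± 9.6 points with LPSx1 (adjusted p = 0.0165) and -42.7 ± 9.9 with LPSx2 (adjusted p = 0.0041). Sdha, the flavoprotein that oxidises succinate, differed by 11.2 points with LPSx1 (adjusted p = 0.526) and -5.18 with LPSx2 (adjusted p = 0.778). Sdhb, the iron-sulfur subunit, differed by -22.7 (adjusted p = 0.157) and -15.8 points (adjusted p = 0.316).

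In complex III, 2 of 5 members fell with LPSx2. Uqcrh, the hinge protein that helps cytochrome c to dock, had the largest fall of all members when peaks of neighbouring genes were counted. With peaks nearest to its own start alone the LPSx2 difference was -15.2 points (adjusted p = 0.271), and that of Ndufaf7 was -47.0. It ranked between 4.74 and 89.8 in media (median 75.3), 0 and 71.8 in LPSx1 (median 30.1) and 0 and 35.7 in LPSx2 (median 18.2). The differences were -35.3 ± 9.8 points with LPSx1 (adjusted p = 0.0191) and -51.4 ± 10.1 with LPSx2 (adjusted p = 0.00141), and 7 of 7 animals were lower with LPSx2. BTBR animal 2 already ranked 4.74 in media. Uqcrq, a small subunit, fell by 38.3 ± 10.8 points with LPSx2 (adjusted p = 0.0146). Cycs, cytochrome c itself, ranked between 56.8 and 96.1 in media and between 0 and 89.5 in LPSx2 and fell by 32.2 ± 9.2 points (adjusted p = 0.0154).

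With LPSx2, 1 of 8 tested members of complex IV and 1 of 11 of ATP synthase were called, beside 20.8% of all genes. Of 8 complex IV members tested, Cox7c rose under both schedules and none fell. Cox7c, a small subunit, ranked between 74 and 99 in media (median 94.6), 94.6 and 99.3 in LPSx1 (median 98.8) and 89.1 and 99.4 in LPSx2 (median 98.2). The rises were 9.5 ± 2.4 points (adjusted p = 0.011) and 8.5 ± 2.5 points (adjusted p = 0.0173), with 5 and 4 of 7 animals higher. Of 11 ATP synthase members, Atp5d, a subunit of the central stalk, fell with LPSx2 by 32.2 ± 11.6 points (adjusted p = 0.0476) and had an adjusted p of 0.0503 with the animal as a block. With that block Atp5e and Atp5s, at 8.87 and -21.3 points, passed with LPSx2 at an adjusted p of 0.0448 and 0.0458; without it they had 0.05003 and 0.0517. Atp5j differed by 1.17 points (adjusted p = 0.747) and Atp5g1 by -5.37 points (adjusted p = 0.197). These counts by complex were not tested against each other.

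Core subunits that did not pass the test had wide errors, and most of their differences were below 0. Ndufv1, the complex I subunit that binds NADH, ranked between 50.9 and 94.5 in media (median 78.9) and between 0 and 87.4 in LPSx2 (median 63.5), with a difference of -28.4 ± 12.1 points (adjusted p = 0.0889). Uqcrfs1 differed by -11.9 ± 9.67 points with LPSx2 (adjusted p = 0.384). In complex IV, Cox5a differed by -29.9 ± 11.3 points with LPSx2 (adjusted p = 0.0579) and Cox4i1 by -18.7 ± 9.32 (adjusted p = 0.144). Atp5b, the catalytic β subunit of ATP synthase, differed by -15 ± 9.61 points (adjusted p = 0.261). Differences above 0 that did not pass were largest for Ndufa8 (16.4 points, adjusted p = 0.31) and Uqcrb (14.9 points, adjusted p = 0.32) with LPSx1, after Ndufa4. With LPSx2 they were largest for Uqcrb (22 points, adjusted p = 0.12) and Ndufaf5 (19.1 points, adjusted p = 0.15).

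**Figure D2:**
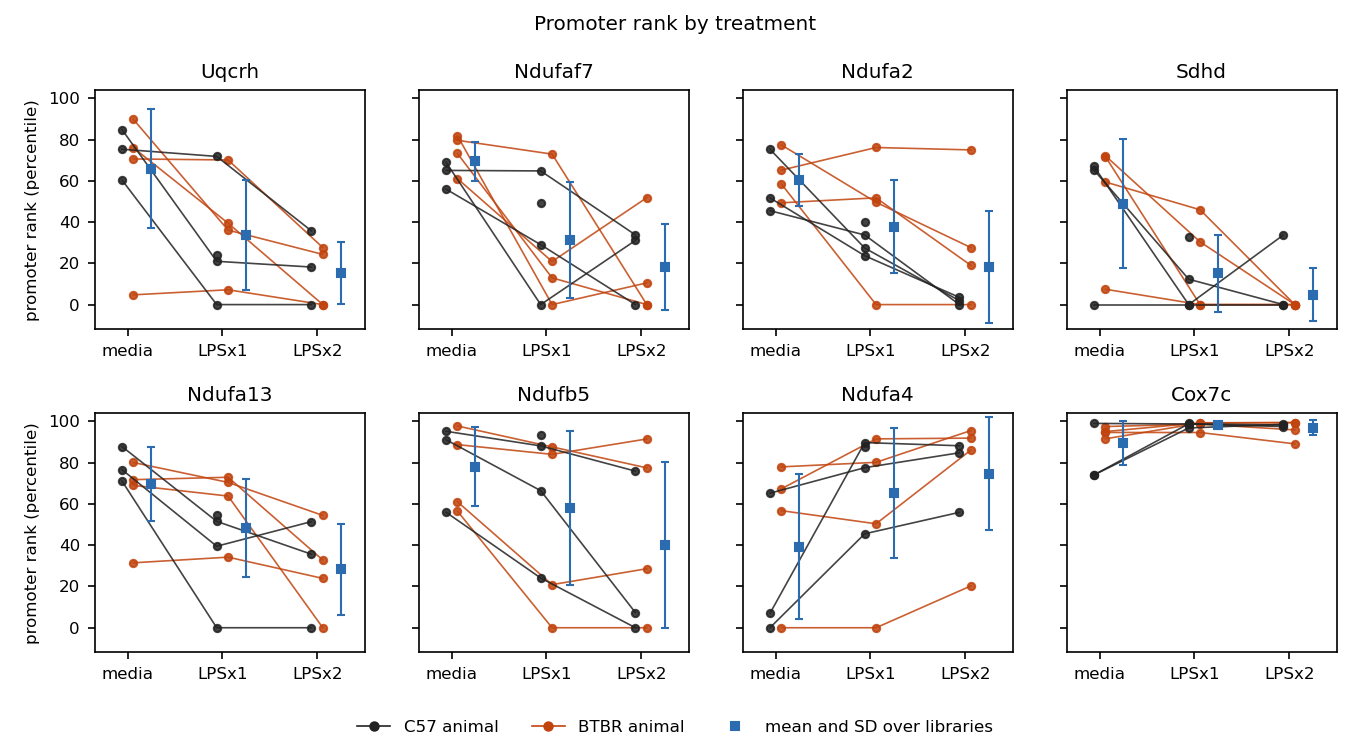
Promoter rank (vertical axis, percentile) in media, LPSx1 and LPSx2 (horizontal axis), with 1 line per animal coloured by strain, for the 7 members whose LPSx2 call held without each animal in turn, and Cox7c. Uqcrh, Ndufa13, Ndufaf7, Ndufb5, Ndufa2 and Sdhd descend in most animals, and Ndufa4 rises in all 7 animals with both libraries.

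The calls depended on individual animals. With LPSx2, 7 of 18 calls held when each animal was left out in turn, namely Uqcrh, Ndufa13, Ndufaf7, Ndufb5, Ndufa2, Sdhd and Ndufa4. With LPSx1, 0 of 7 did, and the largest adjusted p of a left-out fit was 0.139. The share of all genes called moved as well. With LPSx1, 3 members were called without animal 1 (beside 9.05% of all genes), 11 without animal 2 (18.4%), 3 without animal 3 (5.49%), 4 without animal 4 (8.16%), 0 without animal 5 (4.49%), 2 without animal 7 (7.2%) and 4 without animal 8 (7.99%). With LPSx2 the counts were 11 without animal 1 (beside 13% of all genes), 11 without animal 4 (13.1%), 10 without animal 5 (11%) and 9 without animal 7 (10.6%). Over all 8 fits without 1 animal they ran from 9 to 23 (10.6 to 29.3%), so leaving out an animal could also raise the count. With the animal as a block, 6 members were called with LPSx1 and 19 with LPSx2, beside 9.47% and 21% of all genes.

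The balance of rises and falls depended on what a promoter was ranked against. The share of all peaks that lay within 1 kb of a start site went from 53.3% ± 10.7 in media to 43.7% ± 7.17 in LPSx1 and 41.2% ± 5.53 in LPSx2. Within animals it differed by -9.60 and -12.1 percentage points, lower in 7 of 7 animals under both schedules. When promoters were ranked among promoter peaks alone, which takes that shift out, 5 members rose and 8 fell with LPSx2, beside 7.6% higher and 7.63% lower of 7157 genes. With LPSx1, 5 rose and 2 fell, beside 6.99% higher and 6.06% lower. The median difference over members was then -2.19 points with LPSx2 and 0.33 with LPSx1, against -1.42 and -0.96 over all genes.

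In that ranking Ndufa4 rose by 48.2 points with LPSx2 (adjusted p = 0.000467) and by 32.3 with LPSx1 (adjusted p = 0.0123), and Cox7c by 13.0 and 14.7 points. Atp5e, Uqcrb (a small subunit of complex III) and Ndufaf5 (an assembly factor) also rose, by 15.7, 36.1 and 29.7 points with LPSx2. Uqcrh, Sdhd, Ndufaf7, Ndufa13, Ndufb5 and Cycs fell with LPSx2 in both rankings. Ndufa2 differed by -23.5 points there, with an adjusted p of 0.0698. Uqcr10, a small complex III subunit, was not tested in the ranking among all peaks. In those lists it was detected in 6 of 7 media, 0 of 8 LPSx1 and 2 of 7 LPSx2 libraries. Among promoter peaks, in lists of another length, it was detected in at least 50% of libraries and so was tested. There it fell by 21.1 points with LPSx1 (adjusted p = 0.0275) and by 19.2 with LPSx2 (adjusted p = 0.0454). Of the 18 members called with LPSx2, 9 were called in both rankings, and 18 kept their sign.

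**Figure D3:**
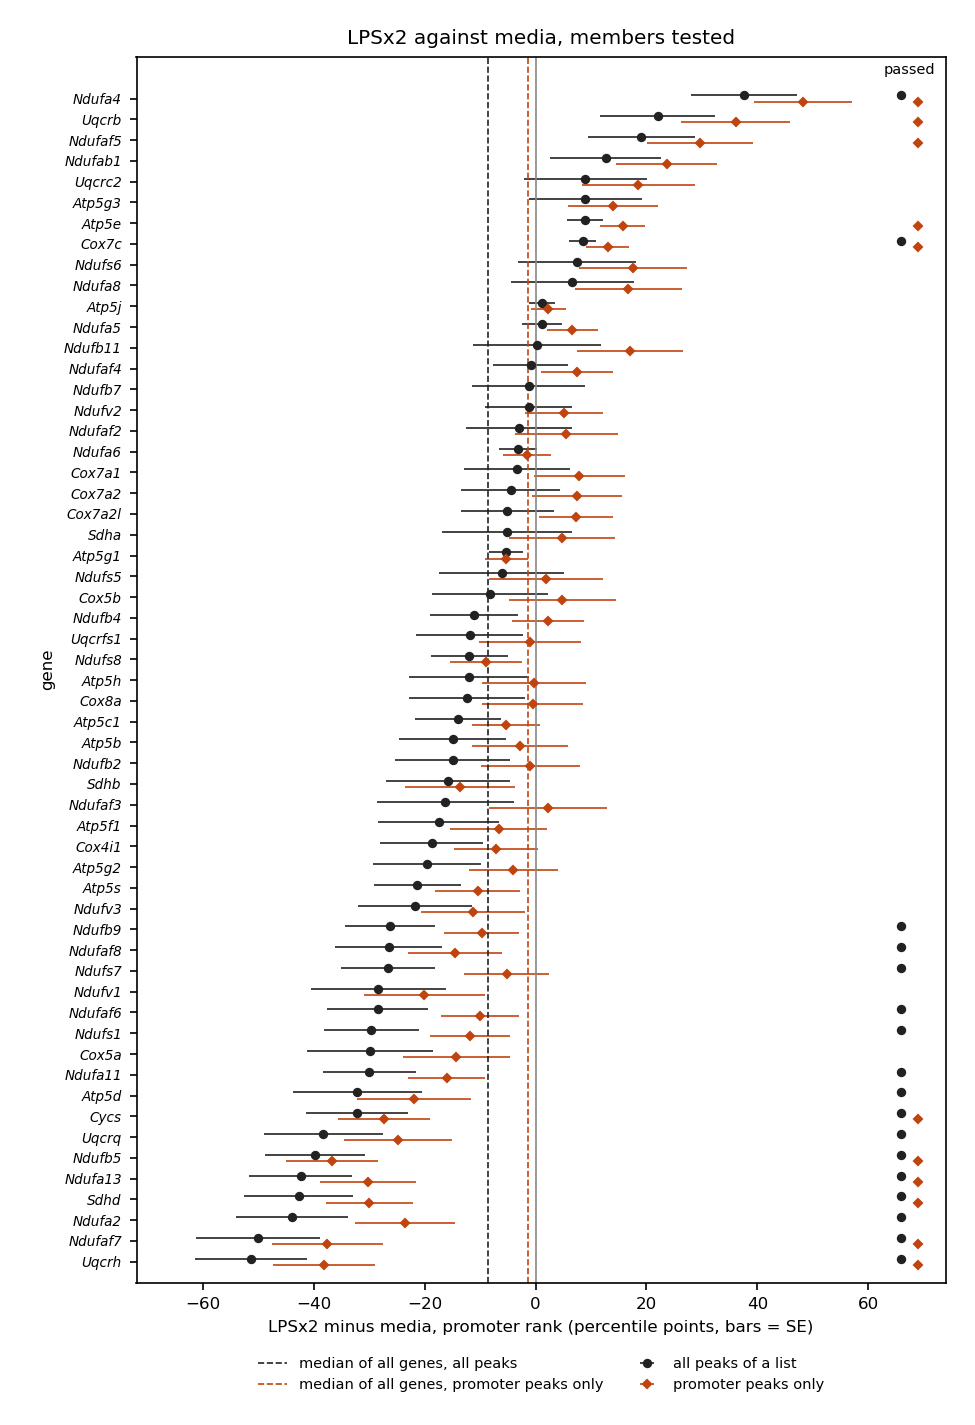
Difference in promoter rank between LPSx2 and media (horizontal axis, percentile points, bars are SE) for the members tested, ranked among all peaks and among promoter peaks only. Most points lie below 0 among all peaks and are mostly shifted to the right, to higher values, among promoter peaks, with Uqcrh and Ndufaf7 at the low end and Ndufa4 at the high end.

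The balance also differed between lanes. In lanes 1 and 2 alone 0 members rose and 2 fell with LPSx2 (1.04% and 2.92% of all genes), and 0 rose and 1 fell with LPSx1 (0.889% and 2.94%). In lanes 3 and 4 alone 8 rose and 7 fell with LPSx2 (7.63% and 10.6% of all genes), and 8 rose and 1 fell with LPSx1 (8.04% and 5.78%). Without the 7 lists full of overlapping peaks, 8 rose and 9 fell with LPSx2 (6.44% and 13.5% of all genes), and 9 rose and 7 fell with LPSx1 (7.07% and 10.4%). In lanes 3 and 4 alone and without those 7 lists, C57BL6/J media and LPSx2 each had 1 library, that of animal 7, which was assumed to vary like the rest. The signs of the 18 LPSx2 calls were the same as in the full set for 16 in lanes 1 and 2 and for 16 in lanes 3 and 4. Without a term for the lane, 0 members were called under either schedule, beside 0.671% of all genes for LPSx1 and 1.69% for LPSx2.

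A promoter peak can belong to a neighbouring gene. Several members start within 1 kb of another gene, and the peak counted for Ndufa13 was nearest to another gene's start in all of its 19 libraries. The same held for Ndufa11 (11 libraries, with Vmac) and for Atp5f1 (13 libraries, with Wdr77), while the Sdhd peak was nearest to its own start in 2 of 11 libraries, beside Timm8b at 98 bp. When a peak counted only for its nearest gene, 44 members could be tested, and 1 rose and 8 fell with LPSx2, beside 2.78% and 13.6% of 6331 genes. Uqcrh then lost its calls, with a difference of -0.1 points with LPSx1 (adjusted p = 0.995); its peak lay nearest to its own start in 13 of 18 libraries, beside Lrrc41. Ndufaf7 had an adjusted p of 0.0124 with LPSx2, and Ndufb5, whose own start was nearest in 19 of 19 libraries, had an adjusted p of 0.00534. Mrpl47, also called lower with LPSx2, starts closer to Ndufb5 than the 201 bp width of a peak. For Ndufb5 the nearest start therefore cannot tell the genes apart. Ndufa4, Ndufa2, Sdhd, Ndufa11 and Ndufa13 were detected in too few libraries to be tested in this way.

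No member was called between the schedules. Between LPSx2 and LPSx1, 0 members and 0.0% of all 7152 genes passed limma's adjusted threshold, with 0 members higher and 3 lower at an unadjusted p under 0.05. The unadjusted count has no share of all genes beside it and is not read as a result about members. Of the 58 differences, 39 were below 0, with a median of -4.57 points against -1.43 over all genes. The lowest were Ndufv3 at -21.4, Ndufa2 at -20.6 and Ndufa13 at -20.0 points, each with an adjusted p of 0.75. The highest were Ndufa4 at 13.1 points (adjusted p = 0.87), Ndufab1 at 7.93 (adjusted p = 0.93) and Uqcrb at 7.17 (adjusted p = 0.95).

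Between strains, 1 member was called in the fit over libraries, though not on animal means. Uqcrc2, a core subunit of complex III on chromosome 7 (chr7:120635176-120659524, plus strand), was lower in BTBR, beside 1.82% of all genes called between strains (0.685% higher in BTBR, 1.13% lower). In C57BL6/J it ranked 56, 69 and 70.8 in media, 18.8, 76.2, 74.9 and 78.7 in LPSx1, and 71.3, 75.5 and 80.1 in LPSx2. BTBR animals 2, 3, 5 and 8 gave 37.2, 0, 16.1 and 41.1 in media, 0, 5.61, 56.1 and 81.6 in LPSx1, and 0, 0, 66.2 and 58.5 in LPSx2. The strains did not overlap in media or in LPSx2, and in LPSx1 they did. Uqcrc2 was picked by the test on these same values, and no share of all genes without such overlap is given, so this adds no support. Its own start was the nearest in all 18 libraries with a peak.

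The Uqcrc2 difference was -40.9 ± 8.8 points (adjusted p = 0.00775) in limma over libraries. That fit allowed for correlation within an animal but estimated it at -0.0222, so libraries counted nearly as independent replicates of a strain. Among promoter peaks alone the difference was -37.5 points (adjusted p = 0.00385). There 0 members were higher, and 0.908% of all genes were higher and 1.9% lower. The Uqcrc2 difference was -54.0 in lanes 1 and 2 and -18 in lanes 3 and 4. Without animal 3 it was -28.1 (adjusted p = 0.206), without animal 4 -28.9 (adjusted p = 0.219), and without the lists full of overlapping peaks -20.5 (adjusted p = 0.208). On animal means it was -38.2 points with an adjusted p of 0.272. The direction of the strain calls turned in 2 subsets, lanes 3 and 4 alone and the lists without overlapping peaks, which share most of their libraries and hold animal 7 as the 1 C57BL6/J animal with media or LPSx2. In lanes 3 and 4, 6 members were higher in BTBR and 0 lower (3.6% and 0.872% of all genes), and without the lists full of overlapping peaks 6 and 0 (4.47% and 2.11%). The 6 were the same in both: Ndufa4 (23.1 and 22.1 points), Ndufaf5 (20.4 and 19.0), Atp5e, Ndufa5, Cox7c and Ndufb4 (7.13 to 8.89 points). Among members that did not pass, Uqcrb was lower in BTBR, at -19.7 points (adjusted p = 0.26). Atp5h and Atp5s were at 18.5 and 17.1 points (adjusted p = 0.33 and 0.18), and Ndufs7 at -12.1 points (adjusted p = 0.44).

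**Figure D4:**
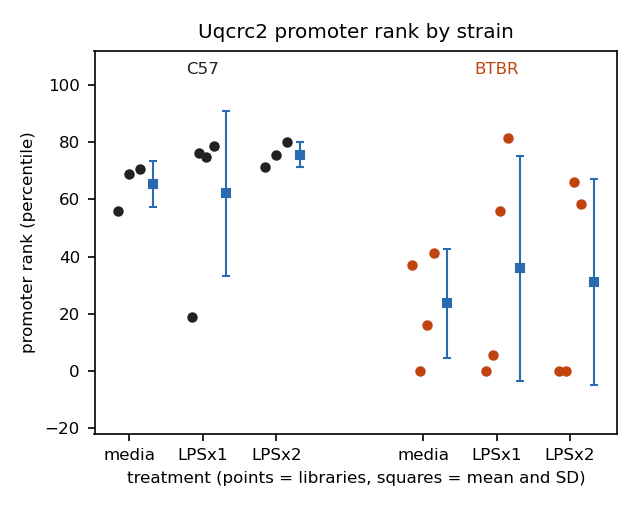
Promoter rank of Uqcrc2 (vertical axis, percentile) by treatment (horizontal axis) and strain; points are libraries, squares and bars the mean and SD. BTBR libraries lie below the C57BL6/J libraries in media and LPSx2, while in LPSx1 BTBR reaches 81.6 and C57BL6/J falls to 18.8.

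The response to LPS was not shown to differ between strains. For LPSx1 and for LPSx2, 0 members and 0.0% of all genes passed limma's test of the difference in promoter rank response. At an unadjusted p under 0.05 there were 5 higher and 2 lower members for LPSx1, and 5 and 1 for LPSx2. Here too the unadjusted counts have no share of all genes beside them. For Uqcrc2 the adjusted p of that test were 0.789 and 0.979.

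Counting peaks near genes gave no call among members. The 9138 genes tested had 0.5 peaks or more on average over the libraries, and 52 were members. With LPSx1 0 members passed limma's adjusted threshold, beside 5.6% of all genes, and 2 were higher and 2 lower at an unadjusted p under 0.05. With LPSx2 0 passed, beside 6.24%, with 1 higher and 9 lower at an unadjusted p under 0.05. Between LPSx2 and LPSx1 0 passed, beside 0.0%, with 0 and 1 at the unadjusted threshold. Between strains 0 passed, beside 1.95%, with 4 higher and 2 lower, and the strain difference in response gave 0 of 52 beside 0.0328% for LPSx1 and 0.0109% for LPSx2, with 1 member each at the unadjusted threshold. All percentages here are shares of all genes at the adjusted threshold. For the unadjusted counts no such share is given, and they are not read as a result about members.

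The lowest adjusted p with LPSx2 belonged to Ndufs1, which had a mean of 0.857 peaks in media and 0.143 in LPSx2 (difference -0.71 ± 0.21, adjusted p = 0.0652). Ndufa9, a complex I subunit, had 0.286 in media and 1.0 in LPSx2 (difference 0.79 ± 0.25, adjusted p = 0.076). Atp5mpl, a small protein of ATP synthase, had 1.86 in media and 0.625 per LPSx1 library (difference -1.27 ± 0.37, adjusted p = 0.0591). Between strains, Sdhb had 2.75 peaks in BTBR and 1.8 in C57BL6/J (difference 1.16 ± 0.36, adjusted p = 0.137).

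As a share of all peaks assigned to genes, peaks at members made up 0.441% ± 0.0479 in media, 0.382% ± 0.0303 in LPSx1 and 0.342% ± 0.0284 in LPSx2. Within animals the share differed by -0.0597 percentage points ± 0.0486 (SD, n = 7) with LPSx1, lower in 6 of 7 animals, and by -0.0998 ± 0.064 with LPSx2, lower in 7 of 7. Counted among promoter peaks alone, the difference was 0.00166 with LPSx1 and -0.0683 with LPSx2, lower in 7 of 7 animals. Over libraries of all treatments, BTBR had 0.398% ± 0.0517 (SD, 12 libraries) and C57BL6/J 0.376% ± 0.0563 (10 libraries). The difference lay within either SD, but these SDs include differences between treatments and are not the spread between animals of a strain.

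**Figure D5:**
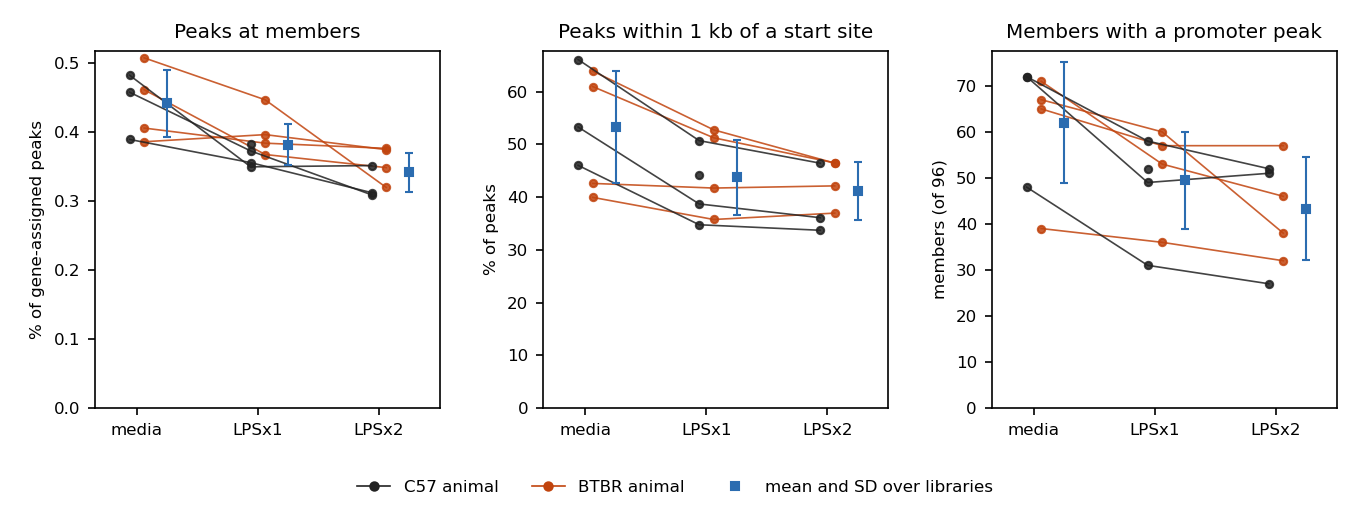
Peaks at members as a percentage of gene-assigned peaks, peaks within 1 kb of a start site as a percentage of all peaks, and the number of the 96 members with a promoter peak (vertical axes) by treatment (horizontal axes), with 1 line per animal coloured by strain. Promoter share and member number are lower than media in 7 of 7 animals under both schedules, and the first in 6 of 7 with LPSx1 and 7 of 7 with LPSx2.

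Peaks of the 22 libraries fell into 45001 distinct regions, of which 137 were assigned to members. Members were served mostly by promoters: 59.1% of their regions lay within 1 kb of a start site, against 31.3% of all regions. The 56 distal regions belonged to 29 members, 19 of them were seen in 1 library and 0 in every library. The most frequent was a region assigned to Cox4i1, the common form of complex IV subunit 4, at chr8:120686014-120686434 in an intron of the annotated gene Gm20388, 17916 bp from the start. It was present in 7 of 7 media, 7 of 8 LPSx1 and 7 of 7 LPSx2 libraries, whereas the Cox4i1 promoter was detected in 11 of 22.

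Regions were called gained or lost when at least 5 of 7 animals changed that way and 0 the other way. With LPSx1, 3 of 137 member regions were gained, beside 1.86% of all regions, and 1 was lost, beside 1.17%. With LPSx2, 2 were gained, beside 2.1%, and 2 lost, beside 1.38%. Between LPSx2 and LPSx1, 0 were gained and 0 lost, beside 0.0289% and 0.0267%. Gained with both schedules were a region in an intron of Ndufa9 (chr6:126845175-126845423, 3826 bp from its start) and an intergenic region 19791 bp from Uqcrfs1, the Rieske iron-sulfur protein of complex III (chr13:30565008-30565299). The Ndufa9 region was present in 0 of 7 media, 6 of 8 LPSx1 and 6 of 7 LPSx2 libraries, and the Uqcrfs1 region in 0, 7 and 7.

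A region in an intron of Itgad, assigned to Cox6a2 by distance (chr7:128209737-128210009), was gained with LPSx1 and present in 0 of 7 media, 5 of 8 LPSx1 and 4 of 7 LPSx2 libraries. The promoter of Ndufb6, an accessory subunit of complex I (chr4:40279291-40279559), was lost with both schedules, from 6 of 7 media libraries to 1 of 8 and 0 of 7. That of Ndufs1 (chr1:63176599-63176867) was lost with LPSx2, from 6 of 7 to 1 of 7. In the merged lists at full length, which hold weaker peaks, 2 of 405 member regions were gained with LPSx1 and 4 with LPSx2, beside 1.17% and 1.22% of all 147816 regions, and 0 were lost, beside 0.0839% and 0.137%.

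Genes around the system were read beside it. Of 39 assembly factors outside the rule, 28 were tested and 11 fell with LPSx2 (39.3%), with 0 that rose and a median of -18.1 points; with LPSx1, 4 fell. Coa5, an assembly factor of complex IV, went from a mean rank of 64.7 in media to 19.3 in LPSx2 (difference -47.2 ± 9.98 points, adjusted p = 0.00229). The copper carriers Sco1 and Cox17 for complex IV fell by 41.3 and 33.4 points, with adjusted p of 0.00906 and 0.011. Sdhaf2, which attaches the flavin to Sdha, fell by 33.7 points (adjusted p = 0.0164). Of 20 regulators of mitochondrial gene expression, 13 were tested and 4 fell with LPSx2, with a median of -9.43 points. They were the nuclear receptors Esrra (-29.3 points, adjusted p = 0.021) and Ppard (-32.5 points, adjusted p = 0.0477), the coactivator Pprc1 (-35.8 points, adjusted p = 0.0315), and Tfb2m, a mitochondrial transcription factor (-18.3 points, adjusted p = 0.023). Of 14 tested genes of the citric acid cycle and pyruvate dehydrogenase, 3 fell with LPSx2, namely Mdh2, Ogdh and Sucla2, and Idh3g fell with LPSx1. These counts stand beside 18% of all genes lower with LPSx2, and none of the lists was tested against the rest.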

How the data were processed

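ATAC-seq libraries of 24 macrophage cultures (8 animals, 3 treatments) were read as 1 peak list per library. The authors worked on mm10 with Trimmomatic 0.38, SAMtools 1.8, Picard 2.18.4, HOMER and bedtools, per the submitters' processing notes; the aligner is not given in the sources used here. The list names give a false discovery rate of 0.01. The score of each peak is as deposited by the authors, has no stated scale and moves in steps of 0.5; only the order it gives within each list was used. Depth in reads is unknown, so no counting interval is given.

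Of overlapping peaks in a list the one with the higher score was kept, 2 lists under 5000 merged peaks were left out, and lists were limited within a lane to 11350, 22039, 16045 and 13957 peaks. Start sites came from GENCODE M21 protein-coding transcripts, which left out 85 genes and 0 members. Promoter sequences came from RefSeq (GRCm38.p6), matched for 75 of 96 members by symbol. Peak number and promoter rank were fitted with limma 3.58.1 (trend, robust) in R 4.3.3 over all genes past the filters, with 6 groups of strain and treatment and a term for lane, and Benjamini-Hochberg adjustment over all genes tested. Strain contrasts used duplicateCorrelation (statmod 1.5.0) with the animal; its estimate was -0.0222 for rank and -0.0669 for peak number. Tables were made in Python 3.11.15 with pandas 2.3.3 and numpy 2.4.6, and figures with matplotlib 3.10.9. The procedure was tested on simulated data without lane effects, for LPSx2 against media. For promoter rank, limma recovered 37.4% of changes of 40 points that had room on the scale. There the noise of a gene was its SD over all 22 libraries, which includes differences between lanes and groups. The real fits model those differences, so their recovery may differ. For peak number limma recovered 86.5% of changes of 4 peaks. Of the calls, 4.41% and 4.5% were false. A promoter rank that did not pass is thus not shown to be unchanged.

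The treatments are paired by animal, from the biological replicate number in the labels. Deviations from the group means correlated with a median of 0.371 between libraries of an animal (0.0129 to 0.631, 21 pairs), 0.319 between animals of a lane (20 pairs) and -0.242 between lanes (180 pairs).

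Named genes were those called, those with the 3 largest differences in each direction of each contrast, core subunits, tissue isoforms and members never detected; in the ranking among promoter peaks, those called there. The values of 1 member are not reported here; the counts include it. The members, the gene lists and these rules were chosen with earlier results of these data known. Alternatives covered merging, distance, filters, scaling, lane, animal block, and leaving out each animal.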

Additional observations from a re-analysis of the deposited data

Results flagged for a closer look

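In groups of 4 animals, 10 of 86 tests of promoter rank and of member shares found 1 animal standing apart from the other 3, by the gap to its nearest neighbour relative to the range of the group (Dixon's test). For continuous, normal values chance alone gives about 1 in 20 such groups. Ranks have a floor at 0: in 3 of the 10 cases the other 3 animals were all at 0, which fixes the outcome, and the rate does not apply to them. No difference between strains in the direction of the response was found by every animal moving oppositely.

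Animals 1 and 2, which shared lane 1, were the low ones in 6 of the cases. Under LPSx1, Cox7c ranked 94.6 in BTBR animal 2 (others 98.7 to 99.3) and 96.8 in C57BL6/J animal 1 (others 98.7 to 99.0). Cycs under LPSx1 ranked 18.9 in BTBR animal 2 (others 78.8 to 90.3) and 0 in C57BL6/J animal 1 (others 64.5 to 72.4). Uqcrc2 under LPSx1 ranked 18.8 in C57BL6/J animal 1 (others 74.9 to 78.7). Ndufa4 under LPSx2 ranked 20.3 in BTBR animal 2 (others 86.1 to 95.6).

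Animals 3 and 4, which shared lane 2 with the longest lists, were the high ones in the other 4. Ndufa11 under LPSx1 ranked 39.5 in C57BL6/J animal 4 and 0 in the others. Ndufaf6 ranked 57.6 in C57BL6/J animal 4 under LPSx1 (others 0 to 8.04) and 46.2 in BTBR animal 3 under LPSx2 (others 0). Ndufs7 under LPSx1 ranked 38.8 in BTBR animal 3 and 0 in the others. The part of the lane in these values was not tested.

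The LPSx2 list of C57BL6/J animal 6, left out for its 1877 merged peaks, still held promoter peaks at 9 members: Atp5c1, Atp5e, Cox7c, Ndufa4, Ndufa5, Ndufa6, Ndufaf4, Ndufaf5 and Ndufb5. The media list of the same animal, with 299 peaks, held 1, at Atp5g2.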

How the results depend on the processing

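Peak number gave 0 called members in each contrast. Shares in parentheses are of all genes called in the same fit. With LPSx1 this became 1 with peaks not merged (7.12%), 1 within 25 kb (4.67%), 4 with no filter (6.06%) and 2 in lanes 3 and 4 alone (5.41%), and with LPSx2 7 (13.3%), 1 (5.4%), 6 (6.74%) and 1 (6.36%). In lanes 3 and 4, LPSx2 against LPSx1 gave 1 (3.63%), the strain contrast 1 (5.63%) and the strain difference in LPSx1 response 1 (4%); the strain contrast also gave 1 with the stronger 50% of each list (1.74%). Leaving out 1 animal gave 0 to 1 for LPSx1 (2.23 to 4.31%), LPSx2 (2.27 to 6.4%) and strain (0.493 to 2.14%).

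For promoter rank with LPSx1 (7 called), the count was 2 with the stronger 50% (10.3%), 2 with peaks not merged (6.17%), 16 without lists with duplicates (17.4%), 0 on presence only (0.224%), 0 with no lane covariate (0.671%), 14 with no filter (13.5%), 1 in lanes 1 and 2 alone (3.83%), 4 with peaks nearest to the gene's own start (11.5%), and 0 to 11 without 1 animal (4.49 to 18.4%). With LPSx2 (18 called) the counts were 5 with the stronger 50% (12.6%), 0 on presence only (0.671%), 0 with no lane covariate (1.69%), 2 in lanes 1 and 2 (3.96%), 9 with own-start peaks (16.3%), and 9 to 23 without 1 animal (10.6 to 29.3%). The strain contrast (1 called, lower in BTBR) gave 0 with peaks not merged (1.43%), with no lane covariate (0.0699%) and on animal means (0.168%), and 0 to 2 without 1 animal (0.85 to 3.41%). It gave 6 without duplicate lists (6.58%) and 6 in lanes 3 and 4 (4.47%), all higher in BTBR, so the balance turned there. The strain difference in response gave 5 (LPSx1, 2.71%) and 4 (LPSx2, 2.02%) without duplicate lists, 2 (1.79%) and 2 (1.41%) in lanes 3 and 4, and for LPSx2 0 to 1 without 1 animal (0 to 0.044%). The share of peaks at members among promoter peaks only differed by 0.00166 with LPSx1 and by -0.0306 between strains. The cause was not tested. With the animal as a block, promoter rank gave 6 calls for LPSx1 and 19 for LPSx2, and among promoter peaks only 6 and 12; among all peaks 1 call was lost with LPSx1, Atp5d lost its call with LPSx2, Atp5e and Atp5s gained one, and no peak number count changed.

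No called member had the opposite sign in a fit that called it. For called members, 133 fits without 1 animal kept the call and 54 lost it; of the other settings, 158 kept it and 145 lost it. Ranking in lists of full length, or with no library left out, was not run, since ranks in lists of unequal length cannot be compared. Ranking among promoter peaks with the block, own-start peaks and regions at full length were chosen after seeing the data. All 14 members with no promoter peak had some peak assigned within 100 kb in the lists at full length, which need not lie at the promoter. Some had a distal peak in the length-limited lists too, such as Cox4i2 in 14 libraries. Whether list length hid their promoters was not tested.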

Other observations

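Other large gene families that every cell uses were read beside the members, against 18% of all genes lower with LPSx2 and a median of -8.52 points. Of 92 cytosolic ribosome genes, 47 were tested and 18 fell with LPSx2 (38.3%), with 0 that rose and a median difference of -18.6 points. With LPSx1, 3 of them fell and Rpl22l1 rose. Promoter peaks were found for 66.9% ± 15.2 of ribosome genes in media, 48.5% ± 8.96 in LPSx1 and 39.8% ± 10.2 in LPSx2. Of 25 proteasome genes tested, 6 fell with LPSx2 (24%) and 0 rose, with a median of -12.6 points; the 6 were Psma1, Psmb2, Psmb3, Psmb9, Psmd3 and Psmd5. Psmb9 encodes an immunoproteasome subunit.

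Of 78 mitochondrial ribosome genes, 42 were tested, and 6 fell with LPSx2 (14.3%) and 1, Mrps22, rose, with a median of -7.09 points against -8.52 over all 7152 genes. Mrpl47, which starts 20 bp from Ndufb5, was among the 6 and shares its promoter peak. These lists were not tested against each other.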
